A study of Mus musculus with 13 samples.

Results

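The genes of 8 regulators of the step from G1 to S phase are described here: the inhibitors of cyclin-dependent kinases (CDKs) Cdkn1a, Cdkn1b, Cdkn2a, Cdkn2b, Cdkn2c and Cdkn2d, and the D-type cyclins Ccnd1 and Ccnd2. They were chosen by name from the 55232 genes of a table of promoter counts. They hold 17 of its 77489 promoter rows, and 9 of 57909 regions called for trimethylation of histone H3 at lysine 27 (H3K27me3) overlap those rows.

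D-type cyclins bind and activate CDK4 and CDK6, which phosphorylate the retinoblastoma protein and so release the E2F factors that drive DNA replication genes. The INK4 inhibitors (p16Ink4a from Cdkn2a, p15 from Cdkn2b, p18 from Cdkn2c and p19Ink4d from Cdkn2d) bind CDK4 and CDK6, while the CIP/KIP inhibitors (p21 from Cdkn1a and p27 from Cdkn1b) bind cyclin-CDK complexes more widely. Polycomb repressive complex 2 deposits H3K27me3 over CpG-rich promoters of inactive genes, and the Cdkn2a and Cdkn2b locus is a textbook target of it.

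The study set mouse embryonic stem cells (ESCs) lacking the RNA-binding proteins SAFB and SAFB2 (double knockout, DKO) against WT cells by ChIP-seq. There were 4 DKO and 5 WT libraries for H3K27me3, and 2 DKO and 2 WT libraries for total histone H3. Cells of both genotypes were the male CAST/B6 line with a Rosa26-RMCE cassette, had 3 days of doxycycline, and were fixed in 0.6% formaldehyde. Clone 4 gave the H3K27me3 library of DKO replicate 1, and clone 13 gave every other DKO library. The word Old stood in the names of DKO replicate 3 and WT replicate 4, and the word New in those of DKO replicate 4 and WT replicate 5. No source used here gives the meaning of these words, and they were treated as library sets. WT replicates 1, 4 and 5 shared a name stem that WT replicates 2 and 3 did not. The labels do not tie replicates to separate cultures. The p-values therefore measure only how far these libraries spread, which may be technical.

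Each H3K27me3 library held between 798466 and 1427771 counts over promoter rows and between 1818647 and 3134799 over regions, and each H3 library between 525847 and 736566 over regions. Levels are given as CPM, each count divided by the total of its library after scaling by trimmed mean of M-values (TMM), and per kb where regions of unlike length are set side by side. The median level was 193 CPM (range 4.05 to 305.2) over 8 promoters listed as held by Polycomb in ESCs, such as Hoxd13 and Pax6. It was 1.00 CPM (0 to 4.45) over 8 housekeeping promoters and 5.66 CPM (0 to 33.85) over 10 promoters active in ESCs. A called region overlapped 7 of the 8 Polycomb rows, all but Gata4 (18.9 CPM), and 0 of the 8 housekeeping rows. The lowest Polycomb row was that of Nkx2-2. In the active list 4 of the 10 rows overlapped a region, those of Esrrb (33.85 CPM), Tfcp2l1 (32.4), Lin28a (25.2) and Nanog (0). Only 5 of the 8 Polycomb rows, 1 of the 8 housekeeping rows and 6 of the 10 active rows were free of overlap with other rows, and reads over more than 1 row were not counted. Hprt, the housekeeping row free of overlap, had 4.45 CPM. The median of 6 promoters of fibroblast genes, for feeder cells that a culture could hold, was 5.86 CPM. These promoters were far apart, with 100.2 CPM at Col1a1, 50.5 at Thy1 and 10.1 at Col1a2. Pdgfrb had 1.62 CPM, Col3a1 0.71 and Twist2 0.29. Only 1 of the 6 rows, that of Col1a1, was free of overlap with other rows. The summed level of these fibroblast promoters ran between 158 and 183 CPM in DKO libraries and between 120 and 174 CPM in WT libraries. H3K27me3 counts do not measure whether Safb and Safb2 were lost. In these bulk libraries, fewer cells or alleles with the mark and less mark per cell cannot be told apart.

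Of the 11 start sites that RefSeq gives for the 8 genes, 6 lay inside a called region and 5 outside. Start sites of Cdkn2a (both), Cdkn1b, Ccnd1 and Ccnd2 lay inside. At Cdkn2c, Cdkn1a and Cdkn2b the mark was called over the gene body, just downstream of a start site. The nearest region began 166 bp downstream of the start at Cdkn2c, 217 bp downstream at Cdkn1a and 572 bp downstream at Cdkn2b. A second Cdkn2c start lay inside that region, and a second Cdkn1a start lay 3007 bp upstream of the region there. The Cdkn2c start outside the regions had a short region upstream of it too, and so lay between regions. Cdkn2d had no region over its promoter rows, and the nearest region lay 20580 bp from its start.

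The 5 sequences that follow contrast start sites inside, just beside and far from the mark. Each is the 250 bases upstream of a start site, taken from RefSeq (GRCm38.p6, the assembly of mm10), written 5′ to 3′ on the strand of the gene, with CG dinucleotides in capitals. The Arf and Ink4a starts, the alternative first exons of Cdkn2a, lay inside regions. The Cdkn2c start lay between regions, the Cdkn1a start lay just beside a region, and Cdkn2d was far from any.
Cdkn2a Arf start, chr4:89294620-89294869, minus strand: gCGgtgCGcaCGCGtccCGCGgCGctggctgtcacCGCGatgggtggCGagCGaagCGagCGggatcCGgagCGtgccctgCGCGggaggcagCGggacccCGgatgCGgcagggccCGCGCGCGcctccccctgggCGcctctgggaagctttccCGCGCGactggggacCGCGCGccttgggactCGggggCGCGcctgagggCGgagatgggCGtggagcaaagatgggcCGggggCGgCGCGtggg
Cdkn2a Ink4a start, chr4:89282193-89282442, minus strand: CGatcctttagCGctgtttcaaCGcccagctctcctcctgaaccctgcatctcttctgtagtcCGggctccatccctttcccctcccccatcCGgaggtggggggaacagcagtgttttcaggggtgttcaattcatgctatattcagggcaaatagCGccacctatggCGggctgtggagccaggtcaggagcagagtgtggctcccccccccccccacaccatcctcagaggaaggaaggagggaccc
Cdkn2c upstream start, chr4:109666757-109667006, minus strand: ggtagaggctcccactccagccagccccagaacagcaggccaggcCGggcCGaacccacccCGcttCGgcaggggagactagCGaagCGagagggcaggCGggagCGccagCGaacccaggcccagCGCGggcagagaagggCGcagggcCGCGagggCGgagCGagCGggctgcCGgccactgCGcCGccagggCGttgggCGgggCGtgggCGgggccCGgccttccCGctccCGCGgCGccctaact
Cdkn1a start nearest the region, chr17:29093519-29093768, plus strand: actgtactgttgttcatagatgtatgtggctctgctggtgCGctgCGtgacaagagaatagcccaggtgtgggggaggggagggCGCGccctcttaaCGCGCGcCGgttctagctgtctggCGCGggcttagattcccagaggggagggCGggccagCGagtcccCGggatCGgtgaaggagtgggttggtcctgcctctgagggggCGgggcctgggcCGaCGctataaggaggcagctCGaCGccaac
Cdkn2d start, chr9:21291210-21291459, minus strand: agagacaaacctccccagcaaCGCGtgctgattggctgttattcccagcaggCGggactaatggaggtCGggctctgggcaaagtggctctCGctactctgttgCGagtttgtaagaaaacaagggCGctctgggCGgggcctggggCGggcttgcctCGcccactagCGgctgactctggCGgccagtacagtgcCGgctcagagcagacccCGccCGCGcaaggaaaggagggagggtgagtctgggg

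The Arf window held 40 CG dinucleotides, more than 98.7% of the 32851 windows in the RefSeq table, whose median was 6. The Ink4a window, also inside a region, held 7. The Cdkn2c window, which no region overlapped, held 29, the Cdkn1a window 19 and the Cdkn2d window 16. CG density therefore did not order the members by whether the mark was called at the start. Over the whole table, a region overlapped 12.2% of windows with 0 to 9 CG dinucleotides, 25.6% of those with 10 to 19 and 25.2% of those with 20 or more. RefSeq windows were matched for 6 of the 8 genes, 9 windows in all. GGGCGG, searched on both strands, stood in 5 of the 9, against 32.7% of all windows. CCAAT stood in 2 of the 9, against 33.8%, and TATAAA in 0 of the 9, against 12.4%.

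Ccnd2 and Cdkn2c carried the densest member domains. The Ccnd2 domain averaged 23.8 ± 1.14 CPM per kb in DKO libraries and 28.6 ± 1.64 CPM per kb in WT libraries (SD, n = 4 and 5). Over the 9 libraries its mean of 26.5 CPM per kb was above that of 99.25% of all regions and 98.47% of shared regions. Among the regions on chromosome 6 it was above 99.92%. The Cdkn2c domain followed with a mean of 24.7 CPM per kb and the short Cdkn1a region with 22.5. A second tier ran from Ccnd1 (14.1 CPM per kb) and Arf (14.1) over Ink4a (13.0) and Cdkn1b (12.1) to Cdkn2b (11.8), and the Cdkn2c upstream region was lowest at 9.04. The median of all shared regions was 8.88 CPM per kb. Over all 9 libraries the ranges of every pair of neighbours in this order overlapped. Within DKO libraries the Arf and Ink4a regions did not overlap (12.8 to 15.3 and 10.5 to 11.5 CPM per kb). Within WT libraries Cdkn1a and Ccnd1 did not overlap (16.5 to 33.5 and 11.6 to 13.2 CPM per kb), nor did Ink4a and Cdkn1b, or Cdkn2b and the Cdkn2c upstream region. Cdkn1a was above Ccnd1 in 8 of 9 libraries.

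**Figure D1:**
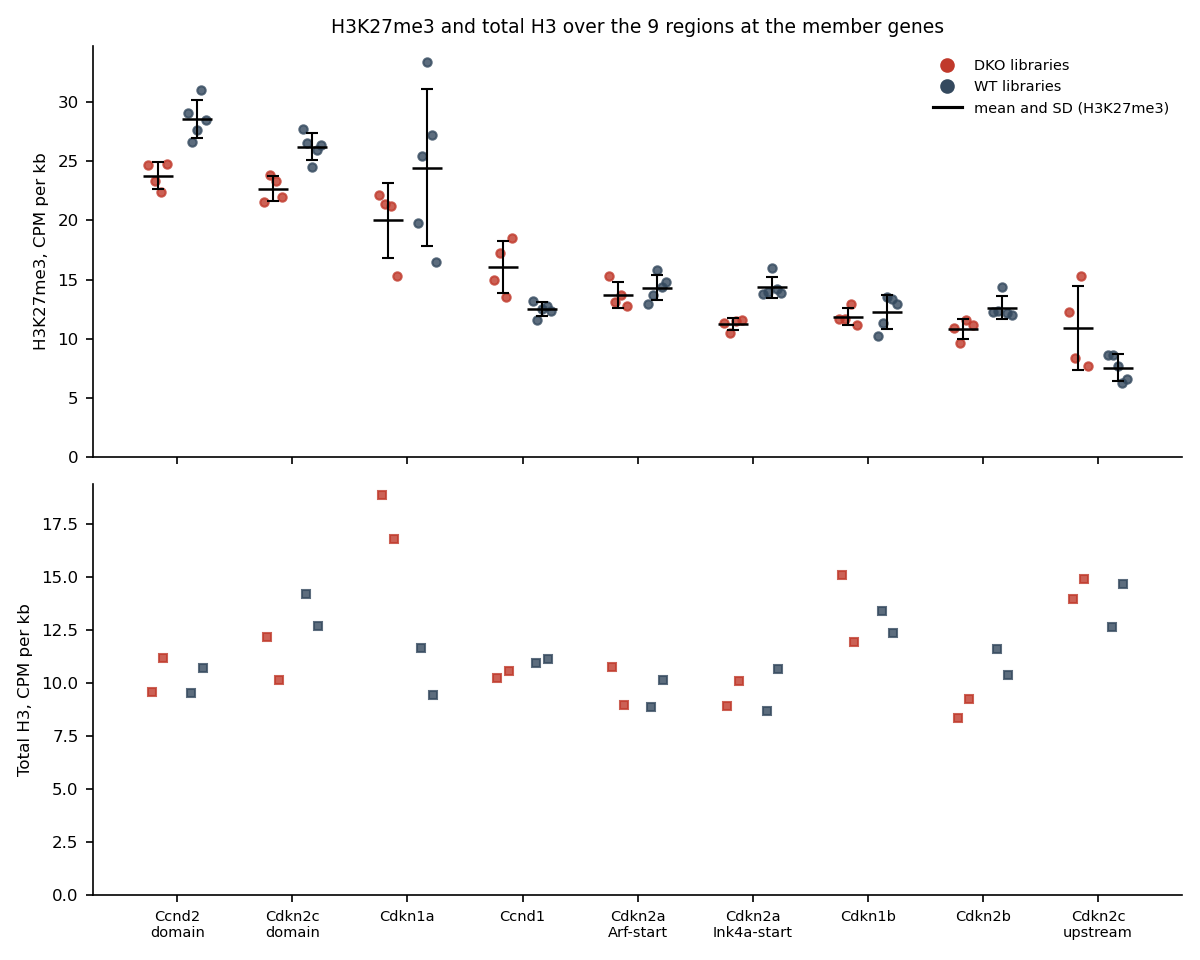
H3K27me3 (top) and total H3 (bottom) in CPM per kb over the 9 regions at member genes, ordered by mean H3K27me3, with a point per library and DKO left of WT. Bars give the mean and SD of H3K27me3. The DKO points of the Ccnd2 and Cdkn2c domains lie below every WT point, while those of the Ccnd1 region lie above every WT point.

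H3K27me3 differed between the genotypes most clearly at Ccnd2, where it was lower in DKO. At Ccnd1 it was higher in every DKO library but did not pass the test in the main fit, which had no term for the library sets. Of the 9 member regions, 2 passed edgeR's quasi-likelihood F test at an adjusted p of 0.05, the Ccnd2 and Cdkn2c domains, both lower in DKO. Over all 40418 regions tested, 4.01% passed, 2.14% higher and 1.87% lower in DKO. The groups did not overlap at 5 of the 9 regions, 4 lower and 1 higher in DKO. Over all regions, every DKO library lay below every WT library at 3.4% and above at 3.35%. At an unadjusted p of 0.05, 6 of the 9 passed, against 19.6% of all regions. The median log2 fold change was -0.21 over the 9 regions and -0.02 over all regions tested. The number of member regions that passed was 5 without WT replicate 1, where 2882 of all 40072 regions tested passed, against 1622 in the main fit. It was 1 without DKO replicate 1 or 2 or WT replicate 2, 4 or 5. Over all regions, 1558, 739, 1056, 1033 and 830 passed in those fits, in that order. Among members, 2 passed without DKO replicate 3 or 4 (621 and 1301 over all regions), but there the Cdkn2c domain did not pass. In its place stood the Ccnd1 region without DKO replicate 3 and the Cdkn2c upstream region without DKO replicate 4, both higher in DKO.

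Region length goes with these differences and has to be read beside them. Of the 534 shared regions of 10 kb or more, 40.6% passed lower in DKO and 2.25% higher, with a median of -0.18. Every DKO library lay below every WT library at 45.7% of them and above at 1.31%. The Ccnd2, Cdkn2c and Cdkn1b regions belong to that class. Of the 4956 shared regions between 3 and 10 kb, 3.59% passed lower and 4.76% higher, with a median of -0.06. The Ccnd1, Ink4a, Arf and Cdkn2b regions belong to the shorter class, where every DKO library lay below every WT library at 6.07% and above at 4.26%. Of the 3 member regions of 10 kb or more, 2 passed lower in DKO, and with 40.6% of that class doing so nothing particular to these genes is read from it.

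**Figure D2:**
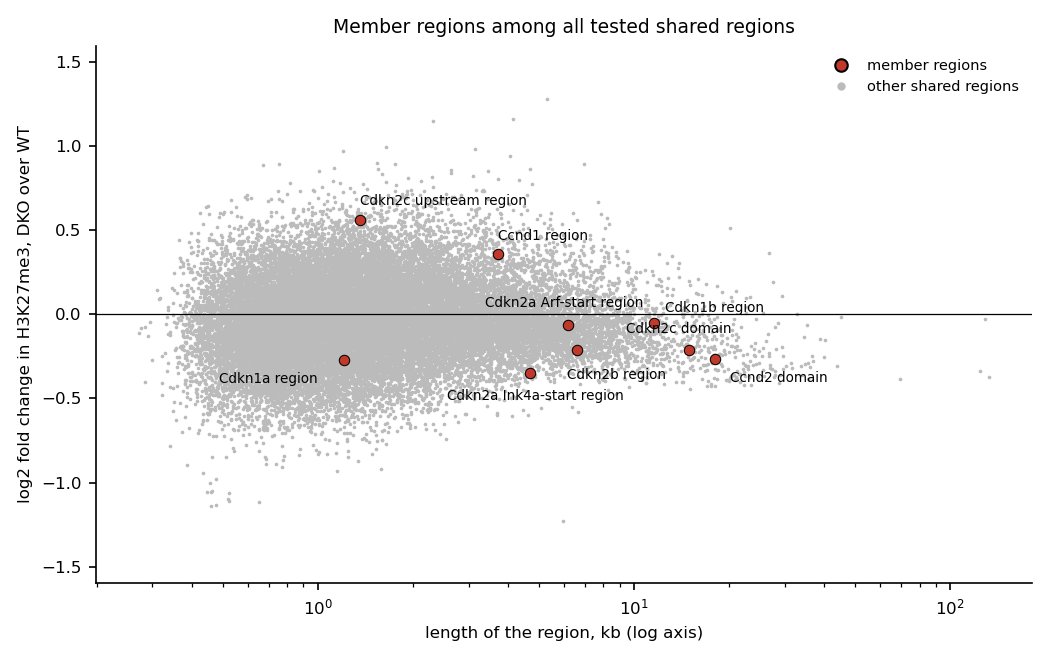
Log2 fold change in H3K27me3 (DKO over WT, vertical axis) against region length in kb (log axis) for the tested shared regions, with the 9 member regions in red. Long regions lie mostly below 0, among them the Ccnd2 and Cdkn2c domains, and the Ccnd1 region lies above 0.

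Among the INK4 genes, Cdkn2a makes p16Ink4a from the Ink4a start and the unrelated protein p19Arf, which stabilises p53, from the Arf start upstream. The Ink4a-start region (chr4:89280439-89285144, 4706 bp, mm10) had 53.3, 49.2, 54.2 and 54.3 CPM in DKO libraries, against 64.8, 65.5, 75.0, 66.7 and 65.3 CPM in WT libraries. Every DKO library lay below every WT library. The log2 fold change was -0.35 (SE 0.11) and missed the threshold, with an edgeR adjusted p of 0.0514. It passed without WT replicate 1, at -0.36 (edgeR adjusted p = 0.0231), and with a term for the library set, at -0.35 (edgeR adjusted p = 0.0394). In all, the region passed in 1 of the 9 fits that left out a library and in 3 of 12 other settings. Within the library sets it did not pass, with an edgeR adjusted p of 0.381 without Old or New and 0.293 with them. The promoter row over the same start, which shares reads with the region, had 86.4, 80.0, 83.7 and 88.5 CPM in DKO libraries, against 99.8, 105.6, 123.3, 93.3 and 102.3 CPM in WT libraries. The groups again did not overlap, with a log2 fold change of -0.30 (SE 0.13, edgeR adjusted p = 0.396).

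The Arf-start region (chr4:89291984-89298185, 6202 bp) showed no such separation. It had 94.8, 81.3, 84.7 and 79.3 CPM in DKO libraries, against 80.3, 85.1, 98.0, 88.9 and 91.6 CPM in WT libraries. DKO replicate 1 stood above 4 of the WT libraries, and the log2 fold change was -0.06 (SE 0.10, edgeR adjusted p = 0.75). The Arf promoter row averaged 108.7 ± 7.37 CPM in DKO libraries and 109.8 ± 14.01 CPM in WT libraries, with a log2 fold change of -0.01 (SE 0.13, edgeR adjusted p = 0.99). Whether the Ink4a and Arf starts differed from each other in their change was not tested.

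Cdkn2b lies next to Cdkn2a, and its region (chr4:89303844-89310460, 6617 bp) covered the gene body. It had 72.0, 63.7, 76.7 and 73.9 CPM in DKO libraries, against 81.1, 81.7, 95.0, 80.4 and 79.4 CPM in WT libraries. All 4 DKO libraries lay below all 5 WT libraries, with a log2 fold change of -0.21 (SE 0.10, edgeR adjusted p = 0.225). Within the library sets it was -0.34 without Old or New and -0.08 with them. The Cdkn2b promoter row, upstream of most of that region, averaged 33.5 ± 5.92 CPM in DKO libraries and 33.8 ± 6.33 CPM in WT libraries, and its log2 fold change was -0.01 (SE 0.19, edgeR adjusted p = 0.993). Within 20 kb of the 3 start sites of Cdkn2a and Cdkn2b, 8 regions were called, 7 of them shared between genotypes. The log2 fold change was negative at 6 and positive at 2, between -0.35 and 0.24, and the smallest edgeR adjusted p was the 0.0514 of the Ink4a-start region. The densest of the 8 was a region of 9802 bp just downstream of the Ink4a start, with 17.0 CPM per kb in DKO libraries and 19.9 CPM per kb in WT libraries and a log2 fold change of -0.23 (SE 0.08, edgeR adjusted p = 0.0687).

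Cdkn2c had a gene-body domain and a separate short upstream region that differed in sign. The domain (chr4:109651710-109666590, 14881 bp) had 321.5, 354.3, 347.5 and 327.2 CPM in DKO libraries, against 412.9, 395.8, 365.6, 386.1 and 392.8 CPM in WT libraries. The groups did not overlap, and the domain fell in DKO by 0.21 on the log2 scale (SE 0.07, edgeR adjusted p = 0.0408). The call sat close to the threshold: it was lost when any of 7 of the 9 libraries was left out, all but WT replicates 1 and 3, with log2 fold changes between -0.23 and -0.19 over all 9. Within the library sets it did not pass either, at -0.22 (edgeR adjusted p = 0.417) without Old or New and -0.20 (edgeR adjusted p = 0.218) with them. Total H3 at the domain was 12.2 and 10.1 CPM per kb in DKO libraries, against 14.2 and 12.7 CPM per kb in WT libraries, with a log2 fold change of -0.29 (SE 0.14, edgeR adjusted p = 0.795).

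The Cdkn2c upstream region (chr4:109667109-109668473, 1365 bp) had 16.7, 11.4, 20.9 and 10.5 CPM in DKO libraries, against 11.8, 11.8, 10.5, 8.52 and 9.001 CPM in WT libraries. DKO replicates 1 and 3 were high and DKO replicates 2 and 4 lay among the WT libraries. For this region the log2 fold change was 0.56 (SE 0.21, edgeR adjusted p = 0.0941). It was 0.34 (edgeR adjusted p = 0.489) without DKO replicate 3, 0.72 (edgeR adjusted p = 0.0399) without DKO replicate 4 and 0.63 (edgeR adjusted p = 0.0482) without WT replicate 1. The upstream promoter row was built on a start at chr4:109667189, inside this region and upstream of the RefSeq start described above. The row gave 30.7 ± 9.09 CPM in DKO libraries and 24.2 ± 5.29 CPM in WT libraries, with a log2 fold change of 0.41 (SE 0.20, edgeR adjusted p = 0.463). It was 0.18 without DKO replicate 3, and within the library sets 0.09 without Old or New and 0.79 with them. The row over the downstream start, inside the domain, averaged 145.6 ± 20.8 CPM in DKO libraries and 145.0 ± 12.8 CPM in WT libraries, with a log2 fold change of 0.00 (SE 0.12, edgeR adjusted p = 0.997). The change of this row and that of the domain were not tested against each other, and promoter rows and regions were scaled by separate TMM factors.

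Cdkn2d stood apart from the other INK4 genes. Its promoter rows held 13 and 1 counts over all 9 libraries, but each had only 155 bases that no other row covered, and reads that touch more than 1 row were not counted. No region was called within 20 kb of its start, so the absence of the mark there rests on the region calls and not on the promoter rows.

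**Figure D3:**
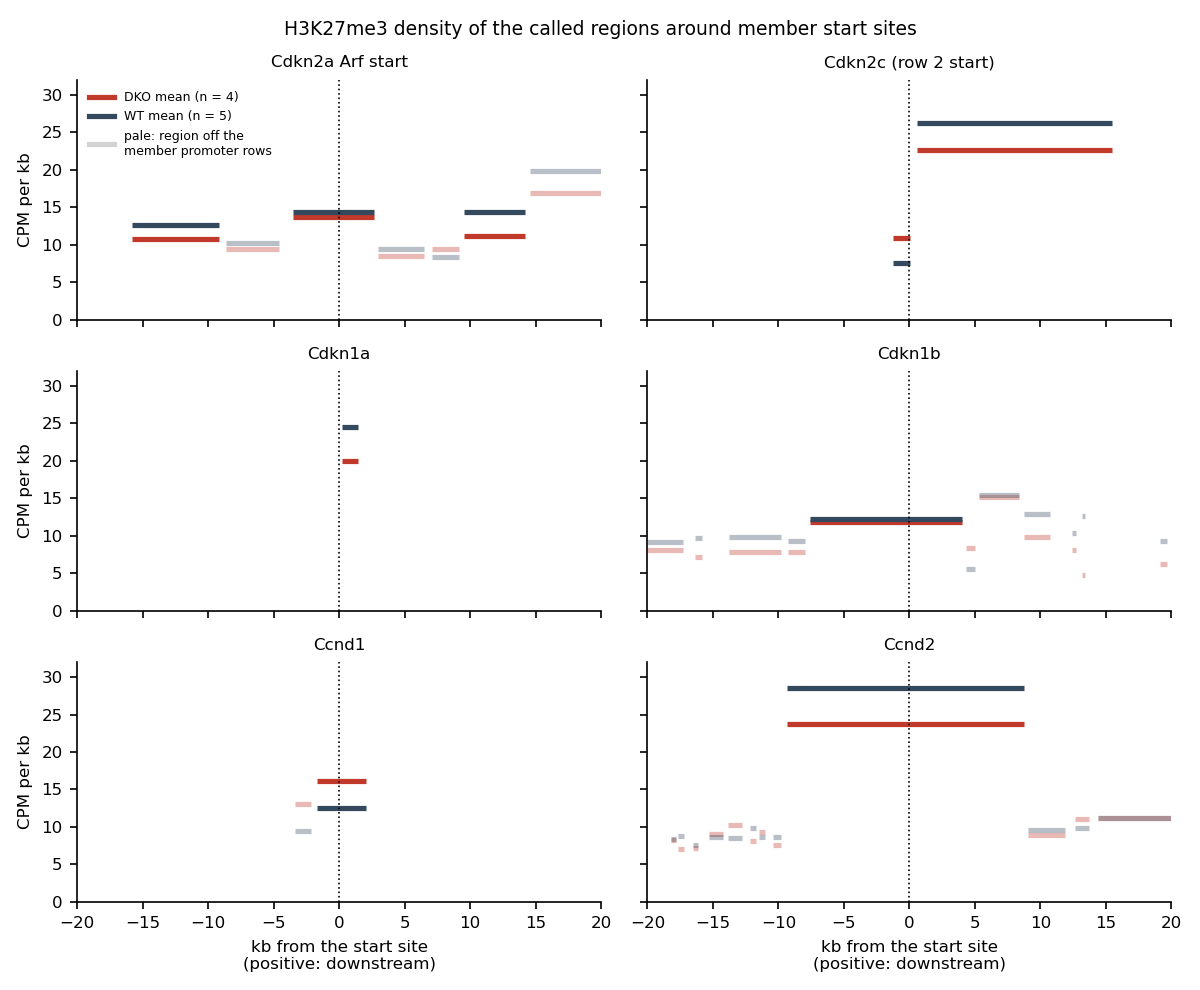
Mean H3K27me3 density (CPM per kb, vertical axis) of the called regions within 20 kb of the start site of a promoter row, by distance from that site in kb, positive downstream. Panels are centred on the Arf start of Cdkn2a and on a start of Cdkn2c, Cdkn1a, Cdkn1b, Ccnd1 and Ccnd2. DKO means are red and WT means dark blue, pale where the region does not overlap a member promoter row. The Ccnd2 domain spans its start, the Cdkn2c domain and the Cdkn1a region begin downstream of it, and Arf, Ink4a and Cdkn2b lie in a chain of separate regions.

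Of the CIP/KIP genes, Cdkn1a, a target of p53, carried a short and dense region (chr17:29093986-29095196, 1211 bp) downstream of its start. It had 26.9, 25.9, 25.7 and 18.6 CPM in DKO libraries, against 24.0, 30.8, 40.5, 33.0 and 19.9 CPM in WT libraries. The groups overlapped, and WT libraries spanned a range of 16.5 to 33.5 CPM per kb. Its log2 fold change was -0.27 (SE 0.16, edgeR adjusted p = 0.329). It was -0.15 without DKO replicate 4, -0.14 without WT replicate 3 and -0.09 with WT replicates 1, 4 and 5 alone. Total H3 counts there were 12 and 15 in DKO libraries, against 9 and 8 in WT libraries, so few reads stand behind the H3 value. The difference in H3K27me3 relative to total H3 was -1.03 on the log2 scale (SE 0.49, edgeR adjusted p = 0.726).

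Cdkn1b lay in a long region (chr6:134912795-134924392, 11598 bp) that spanned its start. It had 135.5, 135.4, 150 and 129.5 CPM in DKO libraries, against 118.6, 131.6, 156.5, 154.9 and 149.5 CPM in WT libraries. All DKO libraries lay within the WT range. Between genotypes the log2 fold change was -0.05 (SE 0.09, edgeR adjusted p = 0.783), and it was 0.12 with an offset for the summed level of each chromosome. The region had 11.9 CPM per kb in DKO libraries and 12.3 CPM per kb in WT libraries. Its mean density was above that of 90.9% of all regions, 81.8% of shared regions and 98.55% of the regions on chromosome 6. The ratio of its share of H3K27me3 counts to its share of total H3 counts was 0.921 in DKO libraries and 0.943 in WT libraries. In WT libraries the median of this ratio was 0.74 over shared regions and 0.65 over all regions. The WT ratio of the Cdkn1b region was above that of 72.2% of shared regions. At the Ccnd2 domain that ratio was 2.31 in DKO libraries and 2.79 in WT libraries.

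Ccnd2, the cyclin D2 gene, lay inside the longest member domain (chr6:127142328-127160392, 18065 bp). It had 445.6, 422.0, 404.3 and 447.2 CPM in DKO libraries, against 526.4, 481.5, 500.2, 560.2 and 515.3 CPM in WT libraries. Every DKO library lay below every WT library, and the domain fell in DKO by 0.27 on the log2 scale (SE 0.06, edgeR adjusted p = 0.00264). The call held when any 1 of the 9 libraries was left out, with log2 fold changes between -0.29 and -0.23. Total H3 differed little, at 9.59 and 11.2 CPM per kb in DKO libraries, against 9.55 and 10.7 CPM per kb in WT libraries, with a log2 fold change of 0.05 (SE 0.14, edgeR adjusted p = 0.999). The difference relative to total H3 was -0.33 (SE 0.16, edgeR adjusted p = 0.728), of like size but with a larger error.

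Chromosome 6, where Ccnd2 and Cdkn1b lie and where 41.5% of all regions were called, was lower in DKO libraries as a whole. The median log2 fold change of its 15714 tested regions was -0.18, and 2% of them passed lower in DKO against 0.102% higher. With an offset for the summed level of each chromosome, the Ccnd2 domain was at -0.11 (edgeR adjusted p = 0.319), so the call rests on the scale shared by all chromosomes. Within the library sets it was -0.33 (edgeR adjusted p = 0.0363) with Old or New and -0.22 (edgeR adjusted p = 0.36) without. The other 11 regions within 20 kb of the Ccnd2 start had between 6.98 and 11.2 CPM per kb in either genotype. Of these, 8 were tested, with unadjusted p-values between 0.19 and 0.895 in edgeR.

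Ccnd1, the cyclin D1 gene, was the member whose level in every DKO library was above that in every WT library. Its region (chr7:144937816-144941535, 3720 bp) had 55.8, 64.2, 50.4 and 68.8 CPM in DKO libraries, against 49.2, 43.1, 46.5, 47.4 and 46.0 CPM in WT libraries. The log2 fold change was 0.36 (SE 0.12) and missed the threshold, with an edgeR adjusted p of 0.058. It passed without DKO replicate 3 (0.44, edgeR adjusted p = 0.0471) and without WT replicate 1 (0.38, edgeR adjusted p = 0.0262), and with a term for the library set (0.36, edgeR adjusted p = 0.0459). In all, the region passed in 2 of the 9 fits that left out a library and in 4 of 12 other settings. Without DKO replicate 4 it was 0.28 (edgeR adjusted p = 0.219), and in DESeq2 it missed too (adjusted p = 0.0702). The promoter row, with no other row over it, had 93.8, 106.3, 90.6 and 106.1 CPM in DKO libraries, against 72.2, 70.4, 70.6, 69.3 and 72.7 CPM in WT libraries. The 5 WT values lay close together, between 69.3 and 72.7 CPM, and the lowest DKO value lay above all of them. The log2 fold change was 0.48 (SE 0.14, unadjusted p = 0.00055, edgeR adjusted p = 0.068).

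The Ccnd1 row lay on either side of the threshold, depending on the setting. It passed with library totals (0.51, edgeR adjusted p = 0.0294), with an offset per chromosome (0.53, edgeR adjusted p = 0.0265), with a strict count filter (0.44, edgeR adjusted p = 0.0152), with a term for the library set (0.48, edgeR adjusted p = 0.0184) and in DESeq2 (0.48, adjusted p = 0.0392). It passed in none of the 9 fits that left out a library, where it was between 0.44 and 0.52. In edgeR it did not pass with relative log expression (RLE) scaling in place of TMM (adjusted p = 0.0654). Nor did it pass with TMM computed without chromosomes 6 and 11, without a count filter, or with WT limited to replicates 1, 4 and 5. Within the library sets it was 0.49 without Old or New (edgeR adjusted p = 0.496) and 0.49 with them (edgeR adjusted p = 0.444). Total H3 over the region was 10.2 and 10.6 CPM per kb in DKO libraries, against 10.96 and 11.15 CPM per kb in WT libraries, a log2 fold change of -0.08 (SE 0.29, edgeR adjusted p = 0.999). The next region, 1249 bp long and upstream of it, had 13.0 CPM per kb in DKO libraries and 9.38 CPM per kb in WT libraries, with a log2 fold change of 0.46 (SE 0.20, edgeR adjusted p = 0.178).

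Only 7 of the 17 member promoter rows held enough counts to be tested, and the rows without a test were those with few bases of their own, with 1 exception, a downstream Cdkn1a row that had 2439 bases of its own and held 86 counts. The 3 Ccnd2 rows, which lie under the densest member domain, held 32 counts over all 9 libraries, because the rows cover each other and a neighbouring gene, 9330179D12Rik, and left 0, 0 and 27 bases of their own. Both Cdkn1b rows had 112 bases of their own and held 50 and 28 counts. At Cdkn1a, the rows of the start nearest the region had 0 bases of their own, overlapped 1700023B13Rik, and held 0 counts. The low promoter values of Ccnd2 and Cdkn1b thus stand beside well-filled regions over the same bases. The upstream Cdkn1a row, with 2790 bases of its own, averaged 7.43 ± 2.33 CPM in DKO libraries and 10.2 ± 4.75 CPM in WT libraries, with a log2 fold change of -0.49 (SE 0.34, edgeR adjusted p = 0.672), which was -0.19 without WT replicate 4 and -0.81 in the libraries with Old or New.

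**Figure D4:**
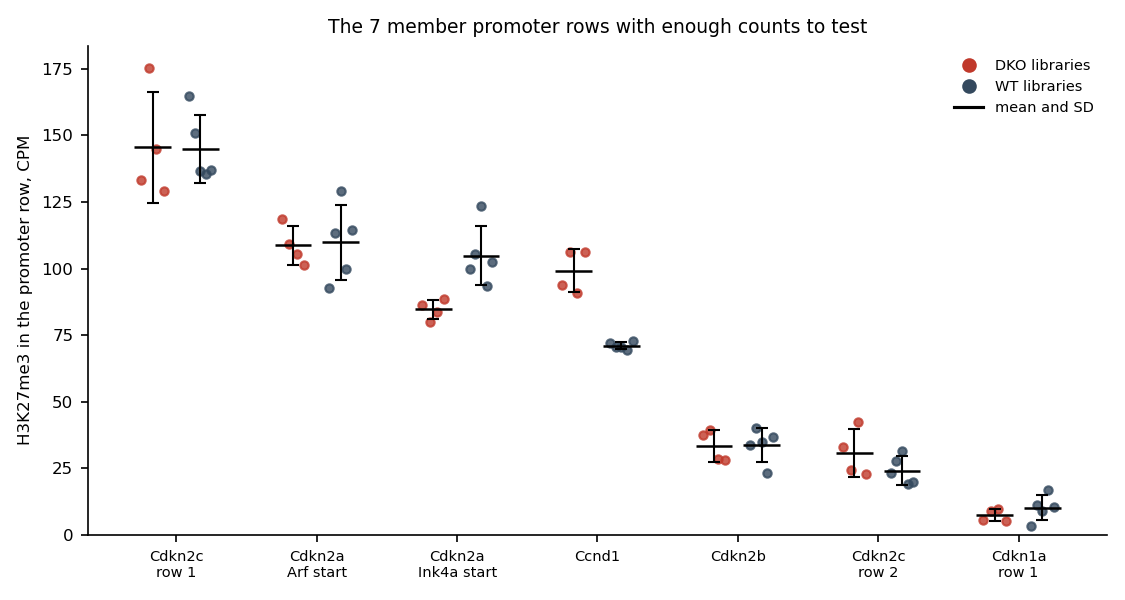
H3K27me3 in the 7 tested member promoter rows in CPM (vertical axis), a point per library with DKO left of WT and bars for the mean and SD. The DKO points of Ccnd1 lie above and those of the Ink4a start below every WT point, while the groups overlap in the other 5 rows.

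None of the 7 tested rows passed edgeR's test, where 0.628% of all 32647 rows tested did, 0.438% higher and 0.19% lower in DKO. At an unadjusted p of 0.05, 3 of the 7 passed (Ccnd1, the Ink4a start and the upstream Cdkn2c row), against 10.2% of all rows. In DESeq2, 1 row passed, that of Ccnd1. The groups did not overlap at 2 of the 7. Over all rows, every DKO library lay below every WT library at 1.61% and above at 1.74%. The median log2 fold change was -0.01 over the 7 rows and -0.01 over all rows tested. Among rows free of any overlap, the mean level of the Arf row was above 97.3% of rows, that of the Ink4a row above 96.7%, that of Ccnd1 above 96.1% and that of Cdkn2b above 88.3%.

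Total H3 gave no call at the 9 regions, where 0.0211% of the 18938 regions tested passed, 0.00528% higher and 0.0158% lower in DKO. At an unadjusted p of 0.05, 1 of the 9 passed, the Cdkn2c domain, against 6.17% of all regions. The difference in H3K27me3 relative to total H3 gave 0 calls among the 9 as well, where 0.00184% of 54290 regions passed. At an unadjusted p of 0.05, 2 of the 9 passed, the Ccnd2 domain and the Cdkn1a region, against 6.74% of all regions. DESeq2 gave 0 calls among the 9 in either comparison. With 2 libraries a group, standard errors of the H3 differences ran between 0.14 and 0.45 on the log2 scale. At the Ccnd1 region the relative difference was 0.43 (SE 0.33) and at the Ink4a-start region -0.35 (SE 0.31), each like its H3K27me3 difference in sign. At the Cdkn2b region it was 0.08 (SE 0.26), opposite in sign to its H3K27me3 difference, with total H3 at -0.31 (SE 0.23). At the Cdkn2c domain it was 0.06 (SE 0.16), where H3K27me3 and total H3 were both lower in DKO libraries.

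**Figure D5:**
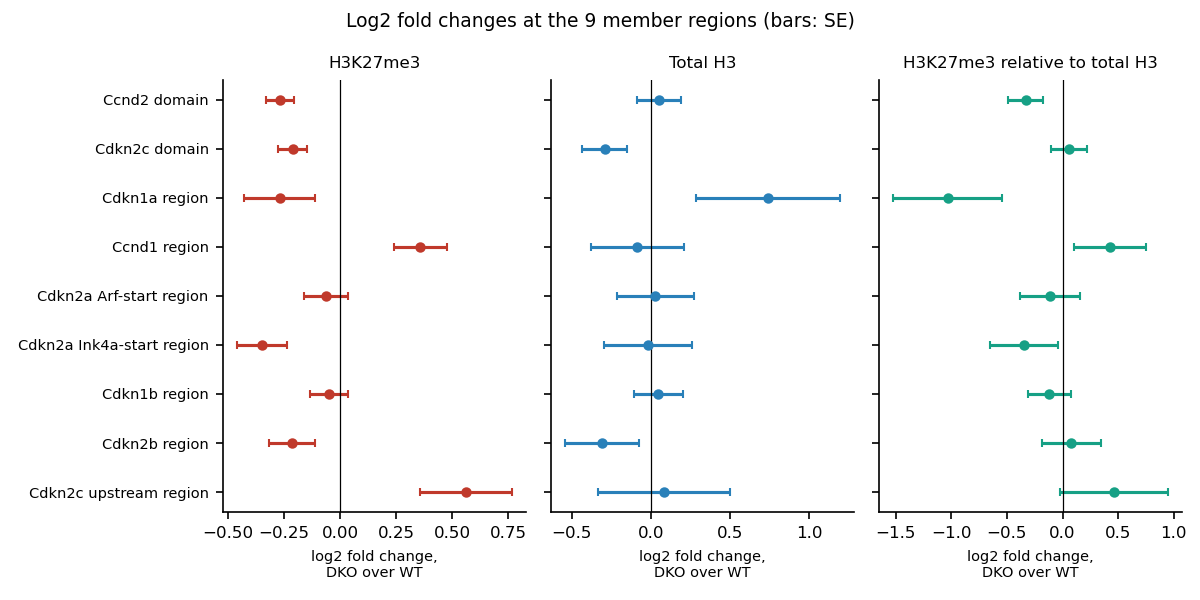
Log2 fold change (DKO over WT, horizontal axes) at the 9 member regions in H3K27me3, in total H3, and in H3K27me3 relative to total H3, with bars for the SE. Ccnd2 stays below 0 in the left and right panels and near 0 in total H3, and the bars widen in the panels that rest on 2 H3 libraries a group.

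Of 30 other genes of the G1 to S step, such as cyclins, CDKs, pocket proteins and E2F factors, 10 had a row that was tested and 0 of these passed edgeR's test in either direction. Only 7 of the 30 rows were free of overlap with other rows, and 12 overlapped a called region. Rows without a test, such as those of Ccna1 and E2f5, can therefore lie under a region. At an unadjusted p of 0.05, 3 of the 10 passed (Rb1, Myc and Ccne1), against 10.2% of all rows, and in DESeq2 0 passed the adjusted threshold. Their median log2 fold change was 0.11, beside -0.01 over all rows tested. The row of E2f6, a repressive E2F factor that works with Polycomb proteins, had the highest level of the list, 137 ± 14.7 CPM in DKO libraries and 135.7 ± 15.3 CPM in WT libraries. Rb1, the retinoblastoma gene, averaged 59.9 ± 11.7 CPM in DKO libraries and 47.8 ± 13.7 CPM in WT libraries (log2 fold change 0.37, SE 0.16, edgeR adjusted p = 0.388). Without DKO replicate 3 the Rb1 difference was 0.23 and without WT replicate 5 it was 0.21, and within the library sets it was 0.15 without Old or New and 0.66 with them. E2f2, an activating E2F factor, averaged 48.1 ± 7.96 CPM in DKO libraries and 48.8 ± 10.1 CPM in WT libraries. Myc, a factor that drives cell cycle entry, averaged 34.2 ± 6.98 CPM in DKO libraries and 20.8 ± 10.4 CPM in WT libraries (log2 fold change 0.69, SE 0.21, edgeR adjusted p = 0.0915). Without WT replicate 1 the Myc difference was 1.05 (edgeR adjusted p = 0.00331). Ccne1, the cyclin E1 gene, named after its values were seen as the remaining gene of these 3, averaged 7.20 ± 3.85 CPM in DKO libraries and 11.9 ± 3.27 CPM in WT libraries (log2 fold change -0.80, SE 0.32, edgeR adjusted p = 0.307).

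Other promoter rows followed the tested members closely over the 9 libraries. For each tested member row, the row of another gene with the highest Pearson correlation of log2 CPM was sought among at least 27988 rows that averaged 10 CPM or more. For Ccnd1 it was Gm27511 on chromosome 11 (r = 0.978), a row that itself passed edgeR's test with a log2 fold change of 0.87 (SE 0.16, adjusted p = 0.000394). For the Ink4a row it was Gm7575 (r = 0.966), for the Arf row Igkv13-74-1 (r = 0.966) and for Cdkn2b Col24a1 (r = 0.951). For the Cdkn2c rows they were Stard3 (r = 0.942) and Gm11774 (r = 0.958), and for Cdkn1a Gm14790 (r = 0.959). These are the highest of many correlations over 9 libraries that share their depth and set, and they are given as a description.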

How the data were processed

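The authors deposited raw read counts per promoter row and per region. Per the file headers, promoter counts were made with featureCounts 2.0.3, without strand, and reads over more than 1 row were dropped. The submitters' processing notes name Bowtie2, MACS2, bedtools and build mm10, without roles. The calling of regions, and the treatment of the CAST and B6 alleles in counting, are not given in the sources used here. Each promoter row covers a start site with 2000 bp before it and 1000 bp after it. Left out were 37 rows of chromosome M and 1 row of abnormal length.

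The WT, DKO and H3 region tables hold the same 57909 regions and were joined by region. Regions were assigned to a gene where they overlap its promoter rows by at least 1 base. Counts were tested in edgeR 4.0.16 (R 4.3.3) on whole tables by the two-sided quasi-likelihood F test, with TMM scaling, filterByExpr (minimum count 10, minimum total 15), no covariates, and Benjamini-Hochberg adjustment at 0.05. H3K27me3 relative to total H3 is the interaction of genotype and antibody over 13 libraries. Standard errors are the log2 fold change over the square root of F. The scripts were tested on simulated data. Alternatives were DESeq2 1.42.0, other scalings and filters, library terms and fewer libraries.

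The members and the lists were chosen with earlier results of these data known. The text names all members, and of the G1 to S list the 4 genes with the highest level, since none passed. Correlations used log2 CPM with a prior count of 2. Libraries of 1 group differed beyond sampling noise in every pair, so none was counted as a duplicate. Sequences are RefSeq's (GRCm38.p6).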

Additional observations from a re-analysis of the deposited data

Results flagged for a closer look

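Single libraries stood apart from the rest of their group in 5 of 40 groups examined by Dixon's test, which chance does in about 1 in 20 groups. At the Cdkn1a region, DKO replicate 4 was lowest of the DKO libraries with 15.3 CPM per kb, against 21.2 CPM per kb in the next. WT replicate 3 was the highest WT library at the Ink4a-start region, with 15.9 CPM per kb and the next at 14.2, and at the Cdkn2b region, with 14.4 CPM per kb and the next at 12.4. Without WT replicate 3 the Ink4a-start region was at -0.31 (edgeR adjusted p = 0.124). At the E2f6 row, WT replicate 4 was the lowest WT library with 108.6 CPM, against 140.1 CPM in the next. At the Myc row, WT replicate 1 was the highest WT library with 39.2 CPM, against 17.9 CPM in the next, and without it the Myc row passed the test.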

How the results depend on the processing

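Of the member promoter rows, 0 were called, and 1, that of Ccnd1, with library totals, with the offset per chromosome, in DESeq2, with the strict filter (30 counts in 4 libraries) and with the term for the library set. Leaving out a library gave 0 to 0. Over all promoter rows, the settings that called Ccnd1 called 288, 125 and 160 of 32647, then 431 of 8879 and 388 of 32647, in that order. Of the member regions, 2 were called. With the offset per chromosome both calls were lost and 1 other was made, the Ccnd1 region, higher in DKO (0.42, edgeR adjusted p = 0.0107). With library totals 2 were called, but the Ccnd1 region, higher in DKO (0.42, edgeR adjusted p = 0.0138), took the place of the Cdkn2c domain (-0.15, edgeR adjusted p = 0.131). Over all 40418 regions tested, 1166 were called with the offset and 1857 with library totals. The number of members called was 3 with TMM computed without chromosomes 6 and 11, against 1400 over all regions. It was 1 with RLE scaling, no count filter, the replicate block, the libraries with Old or New, and with WT limited to replicates 1, 4 and 5. Over all regions these settings called 1570 of 40418, 1572 of 57909, 961 of 40418, 692 of 47039 and 879 of 44181, in that order. Among members, 4 were called with the strict filter and with the library set term, and 0 in the libraries without Old or New. Over all regions the numbers were 1242 of 15115, 1903 of 40418 and 145 of 38419, in that order. Leaving out a library gave 1 to 5 members, the 5 without WT replicate 1, where 2882 of 40072 regions were called. The G1 to S list had 0 called, and 1 (Myc) with the library set term and without WT replicate 1, so 0 to 1. Over all promoter rows, 388 of 32647 passed with that term and 239 of 32781 without that library. Over all promoter rows the number called was 205 and ran between 22 and 431 over the alternatives, and over all regions it was 1622 and ran between 145 and 2882.

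Samples of both genotypes that share a replicate number share only that: their deviations correlated between -0.045 and 0.116 in each pair. None of the 4 DKO libraries correlated best with the WT library of its own number. In promoter rows and in regions, DKO replicate 3 correlated best with WT replicate 4, both with Old in the name. DKO replicate 4 correlated best with WT replicate 5, both with New in the name. The main fits had no term for these library sets. With the replicate block the Cdkn2c domain was at -0.21 (edgeR adjusted p = 0.0581), the Ccnd1 row at 0.49 (edgeR adjusted p = 0.109) and Rb1 at 0.19.

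Values near 0 changed sign under some settings, and the cause was not tested. The row of the Arf start was 0.0181 with library totals, 0.00537 with TMM computed without chromosomes 6 and 11, 0.00322 with the offset, 0.00664 with no filter, 0.00646 with the replicate block, 0.0461 without Old or New and 0.0887 with WT replicates 1, 4 and 5, and -0.0638 to 0.0485 when a library was left out. The Cdkn2b row was 0.0174, 0.00513, 0.00319, 0.00586 and 0.0322 in the first 5 of these settings, 0.0211 with the library set term, 0.099 without Old or New and 0.0883 with WT replicates 1, 4 and 5, and -0.136 to 0.0608 when a library was left out. The downstream Cdkn2c row was -0.032 with the strict filter, -0.0242 with the replicate block and -0.0944 to 0.056 when a library was left out. E2f2 was -0.014 with the strict filter, -0.0211 with the replicate block and -0.105 without Old or New (-0.0934 to 0.101 when a library was left out), and E2f6 was -0.000449 with the strict filter and -0.143 without Old or New (-0.0521 to 0.0715). The Cdkn1b region was 0.0115 with library totals and 0.123 with the offset, and the Arf-start region 0.00358 without Old or New.

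Leaving out a library moved total H3 between -0.0684 and 0.154 at the Ccnd2 domain, -0.101 and 0.246 at Cdkn1b, -0.136 and 0.162 at Ink4a, -0.0818 and 0.185 at Arf, and -0.00261 and 0.213 at the Cdkn2c upstream region. It moved H3K27me3 relative to total H3 between -0.297 and 0.0293 at Cdkn1b, -0.00991 and 0.166 at Cdkn2b and -0.0815 and 0.169 at the Cdkn2c domain. The H3 values rest on 2 libraries a group, with 525847 to 736566 counts each.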
